A study of Mus musculus with 10 samples.

Results

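The genes described here are 10 mouse genes of the MHC class II antigen presentation pathway, out of 21869 genes in the count table. They were taken by symbol, for their role in the pathway and whatever their counts, but with earlier results of these data known. They are the classical chain genes H2-Aa, H2-Ab1 and H2-Eb1, the invariant chain gene Cd74, the transactivator gene Ciita, the peptide exchange genes H2-DMa, H2-DMb1 and H2-DMb2, and the H2-O genes H2-Oa and H2-Ob. All 10 were found in the table and all 10 passed the filter on low counts. Messenger RNA had been sequenced from live retinal cells that were sorted as CD11b+ with intermediate CD45, which the labels call microglia. Surface CD36, a scavenger receptor, divided the sort. There were 5 libraries of CD36-positive cells, with the numbers 1, 2, 3, 4 and 7, and 5 of CD36-negative cells, with the numbers 1, 2, 4, 7 and 8. The titles give every sample as WT, and strain, age and sex are not given in the sources used here. The shared protocol names intravenous NaIO3 at 20 mg/kg, an oxidant that damages the retinal pigment epithelium, or PBS, with eyes collected after 7 days. Which injection the sorted samples had is not stated, and nothing says that samples of a group came from separate animals. The p-values therefore measure the spread between these samples, which may be technical.

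MHC class II molecules are pairs of an alpha and a beta chain that carry peptides from endosomes to the cell surface, where CD4+ T cells read them. The invariant chain holds new pairs stable and blocks their groove until proteases trim it to a short remnant. H2-DM exchanges that remnant for peptide, and H2-O binds H2-DM and restrains it. Dendritic cells, B cells and macrophages carry class II constitutively or on activation, while resting microglia carry little, and CIITA is the co-activator that switches most of these genes on.

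Class II transcripts were lower in CD36-positive cells, but not evenly. Of the 10 genes, 9 were lower at an adjusted p under 0.05 (edgeR's quasi-likelihood test, Benjamini-Hochberg adjustment over all tested genes) and 0 were higher (0 at an unadjusted p under 0.05 and 0 by the DESeq2 Wald test), where 4.74% of 11596 tested genes were lower and 2.61% were higher. The same 9 genes had every CD36-positive library below every CD36-negative library, against 5.82% of all tested genes, and 0 had every CD36-positive library above every CD36-negative one, against 2.59%. The median log2 fold change, CD36-positive over CD36-negative, was -2.29 over the 10 genes with a range of -3.92 to -0.71, and 0.02 over all tested genes. Together the 10 genes took up 0.748% ± 0.144 of all counts in CD36-positive libraries and 3.40% ± 1.16 in CD36-negative libraries (SD over 5 libraries each). In sorted pools, fewer cells of a type and less RNA per cell cannot be told apart.

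Total counts per library ran from 5001692 to 13250984, with 13531 to 15089 genes detected. CD36-positive libraries 1 and 3 stood apart on principal components 2 and 3 of log2 CPM (counts scaled to library size with TMM). Cd36 itself averaged 219 ± 39.9 CPM in CD36-positive libraries and 50.3 ± 5.51 CPM in CD36-negative libraries (SD, n = 5 each). Its groups did not overlap, and its log2 fold change was 2.12. Of 10 microglial marker genes, such as P2ry12 and Tmem119, 0 passed in either direction in edgeR's test, against 4.74% lower and 2.61% higher of all tested genes. At an unadjusted p under 0.05, 1 of the 10 markers was higher and 0 lower. Their summed level was 6900 to 15400 CPM in CD36-positive libraries and 6740 to 15300 CPM in CD36-negative libraries.

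The classical chains form the peptide groove. H2-Aa and H2-Ab1 encode the alpha and beta chains of I-A, and H2-Eb1 encodes the beta chain of I-E. On GRCm38, the build of the files, all 3 are protein-coding genes of chromosome 17. H2-Ab1 lies at chr17:34257689-34269419 on the plus strand, H2-Aa at chr17:34282744-34287823 on the minus strand and H2-Eb1 at chr17:34305867-34316674 on the plus strand.

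H2-Ab1 stood at 1380, 2361, 1743, 1790 and 2442 CPM in CD36-positive libraries 1, 2, 3, 4 and 7, against 13650, 14340, 11050, 6517 and 7634 CPM in CD36-negative libraries 1, 2, 4, 7 and 8. Every CD36-positive library lay below the lowest CD36-negative one, library 7. The means were 1943 ± 448 CPM in CD36-positive libraries and 10640 ± 3499 CPM in CD36-negative libraries (SD, n = 5 each). That is a log2 fold change of -2.45 (SE 0.25, edgeR adjusted p = 8.85e-06). H2-Eb1 had 868, 1506, 1070, 1107 and 1656 CPM in the CD36-positive libraries, in the same order, against 8530, 10150, 7656, 4665 and 5051 CPM in the CD36-negative libraries. Its log2 fold change was -2.54 (SE 0.26, edgeR adjusted p = 6.78e-06), and the libraries stood in the same order as for H2-Ab1. H2-Aa had 1301, 1811, 1391, 1175 and 1341 CPM in CD36-positive libraries, against 7931, 8512, 5137, 2926 and 4550 CPM in CD36-negative libraries. Again no libraries overlapped, with a log2 fold change of -2.05 (SE 0.26, edgeR adjusted p = 6.96e-05). Among CD36-negative libraries, library 7 was the lowest for 9 of the 10 genes, and libraries 1 and 2 were each the highest for 5. Among CD36-positive libraries, library 1 was the lowest for 7 of the 10.

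**Figure D1:**
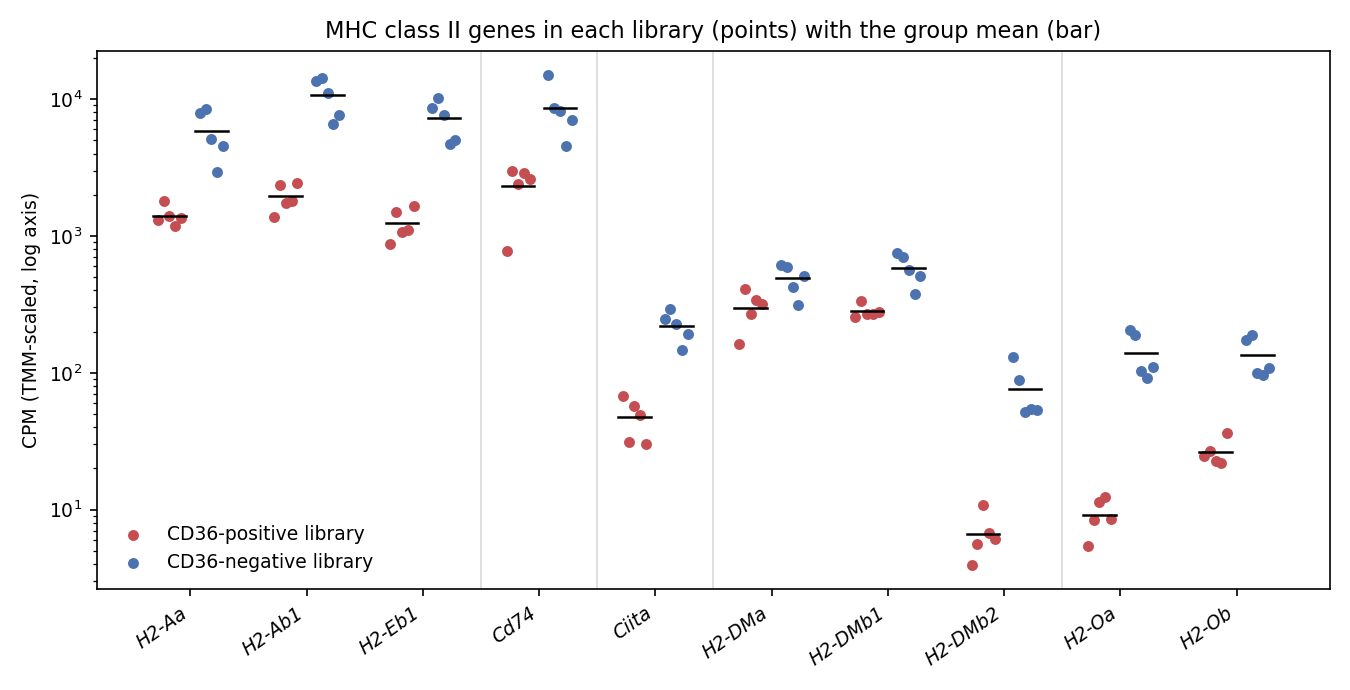
Level of each of the 10 class II genes in each library, in CPM on a log10 axis, with CD36-positive libraries left of CD36-negative libraries. The groups are apart for 9 genes and overlap for H2-DMa, where CD36-positive libraries reach 407 CPM and CD36-negative libraries go down to 311 CPM.

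Cd74 encodes the invariant chain and lies on chromosome 18, away from the class II region. CD36-positive libraries held 779, 2985, 2401, 2887 and 2603 CPM, against 14930, 8646, 8178, 4506 and 6976 CPM in CD36-negative libraries. The groups did not overlap, and CD36-positive library 1 was far below the other CD36-positive libraries. The log2 fold change of Cd74 was -1.89 (SE 0.34, edgeR adjusted p = 0.00184), and -1.68 without that library (edgeR adjusted p = 0.00101).

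Ciita, the gene of the class II transactivator, lies at chr16:10480059-10528418 on the plus strand. It had 68.1, 31.2, 57.5, 49.0 and 30.0 CPM in CD36-positive libraries, against 248, 293, 228, 147 and 191 CPM in CD36-negative libraries. No libraries overlapped, and CD36-positive library 1, the lowest for most of the other genes, was the highest of its group here. The log2 fold change of Ciita was -2.24 (SE 0.26, edgeR adjusted p = 2.61e-05).

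H2-DM is a non-classical class II molecule that stays in endosomes and catalyses peptide exchange. Its alpha chain gene H2-DMa (chr17:34119541-34139101, plus strand) was the exception among the 10. It had 163, 407, 267, 342 and 320 CPM in CD36-positive libraries, against 612, 590, 425, 311 and 507 CPM in CD36-negative libraries. CD36-positive libraries 2, 4 and 7 lay above the lowest CD36-negative library, number 7. The log2 fold change of H2-DMa was -0.71 (SE 0.24, 95% confidence interval -1.21 to -0.21), and it did not pass (edgeR adjusted p = 0.0843). It passed with no filter on low counts (edgeR adjusted p = 0.0478) and in the DESeq2 Wald test (adjusted p = 0.0283), with adjusted p of 0.0283 to 0.256 over all alternatives. Without CD36-positive libraries 1 and 3 its log2 fold change was -0.47 (edgeR adjusted p = 0.256).

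The beta chain of H2-DM comes from either of a pair of neighbouring genes in the mouse, H2-DMb2 (chr17:34143307-34151555) and H2-DMb1 (chr17:34153072-34160230), both on the plus strand. H2-DMb1 had 256, 333, 268, 268 and 278 CPM in CD36-positive libraries, against 748, 698, 559, 377 and 511 CPM in CD36-negative libraries. It fell in CD36-positive cells by 1.04 on the log2 scale (SE 0.19, edgeR adjusted p = 0.00198), with no overlap. H2-DMb2 had 3.96, 5.63, 10.8, 6.75 and 6.09 CPM in CD36-positive libraries, against 131, 88.0, 51.6, 54.1 and 53.4 CPM in CD36-negative libraries. The gap between the groups was wide, with a log2 fold change of -3.50 (SE 0.33, edgeR adjusted p = 3.54e-06).

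The H2-DMb1 and H2-DMb2 transcripts are identical at 1185 of 1255 aligned bases (94.4%), with a longest identical run of 221 bases, so that a read can match both. The deposited counts of each gene were fractional in 10 of 10 libraries, and their sum was a whole number in 10 of 10. The split between the pair is therefore uncertain, and the sum does not depend on it. With both genes summed to 1 row, an alternative chosen after seeing the data, the log2 fold change was -1.19 (SE 0.19, edgeR adjusted p = 0.000768). H2-DMb2 made up 1.52, 1.66, 3.87, 2.46 and 2.14% of the sum in CD36-positive libraries, against 14.9, 11.2, 8.45, 12.5 and 9.46% in CD36-negative libraries. No libraries overlapped in this share. H2-Ab1 and H2-Eb1 also had fractional counts in 1 library, CD36-negative 8.

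**Figure D2:**
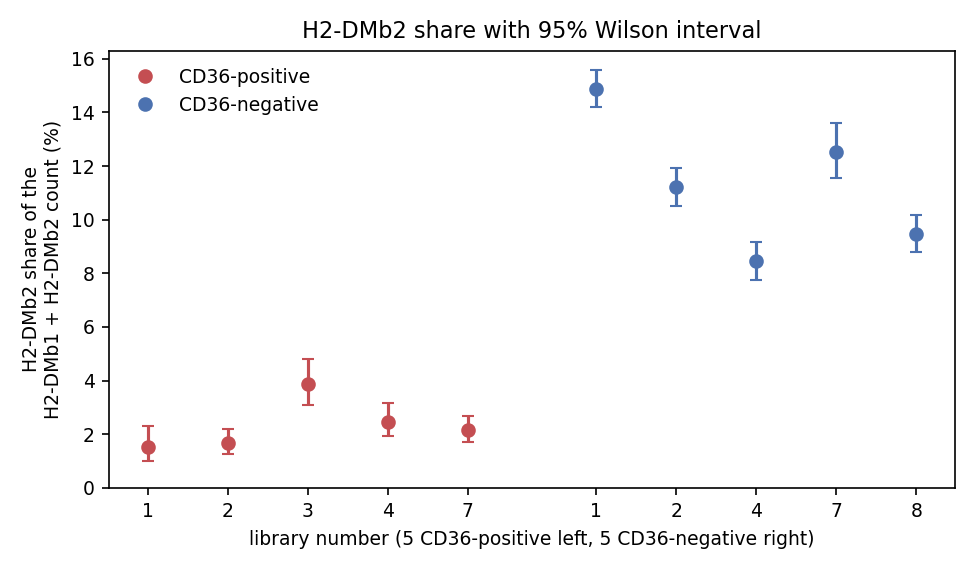
Share of the summed H2-DMb1 and H2-DMb2 counts assigned to H2-DMb2 in each library, in percent, with 95% Wilson intervals that cover counting error only. The 5 CD36-positive libraries lie between 1.52 and 3.87%, and the 5 CD36-negative libraries between 8.45 and 14.9%.

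H2-O is a second non-classical molecule, known chiefly from B cells, thymic epithelium and some dendritic cells, and it inhibits H2-DM. Its alpha chain gene H2-Oa (chr17:34092340-34095234, plus strand) showed the largest difference of the 10. H2-Oa had 5.40, 8.47, 11.3, 12.4 and 8.48 CPM in CD36-positive libraries, against 205, 188, 104, 91.6 and 111 CPM in CD36-negative libraries. The highest CD36-positive library was far below the lowest CD36-negative one, and the log2 fold change was -3.92 (SE 0.30, edgeR adjusted p = 1.02e-06). The beta chain gene H2-Ob (chr17:34238903-34254414, plus strand) had 24.8, 26.8, 22.8, 21.7 and 36.1 CPM in CD36-positive libraries, against 175, 190, 100, 95.8 and 108 CPM in CD36-negative libraries. H2-Ob also showed no overlap, with a smaller log2 fold change of -2.34 (SE 0.25, edgeR adjusted p = 1.09e-05). H2-Oa lies within the span of BC051537, annotated as antisense to it, and Gm20513 runs antisense over the start of H2-Eb1. On the opposite strand, Brd2 overlaps the start of H2-DMa, CR974462.4 and Gm20493 lie within H2-DMa, and Dexi overlaps Ciita. No source used here says whether the counting used strand, so that reads from such partners cannot be told apart.

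Ratios of 2 genes within a library need no scaling between libraries, and they test directly whether 1 gene differed more than another. The 9 pairs were chosen by role, with earlier results of these data known. Group means of the log2 ratio were compared with an exact two-sided permutation test over 252 assignments of libraries. Its smallest p is 0.00794, and Benjamini-Hochberg adjustment was over the 9 pairs. H2-DMa and H2-DMb1 made up more relative to the classical chains in CD36-positive cells. The log2 ratio of H2-DMa to H2-Aa was -2.28 ± 0.46 in CD36-positive libraries and -3.51 ± 0.30 in CD36-negative libraries (SD, n = 5 each), a difference of 1.23. For H2-DMb1 against H2-Ab1 the ratio was -2.77 ± 0.25 in CD36-positive libraries and -4.17 ± 0.18 in CD36-negative libraries, a difference of 1.41. Neither ratio overlapped between groups (exact permutation p = 0.00794, adjusted p = 0.0119 for both).

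Neither H2-O gene was higher relative to the classical chains by this test. Set against H2-Aa, H2-Oa had a log2 ratio of -7.28 ± 0.55 in CD36-positive libraries and -5.35 ± 0.24 in CD36-negative libraries, a difference of -1.93. H2-Oa was thus lower relative to the classical alpha chain too, with no overlap (exact permutation p = 0.00794, adjusted p = 0.0119). The ratio of H2-Ob to H2-Ab1 was -6.19 ± 0.26 in CD36-positive libraries and -6.31 ± 0.28 in CD36-negative libraries, a difference of 0.12 that did not pass (exact permutation p = 0.532, adjusted p = 0.598), with groups that overlapped. A p that misses the threshold does not show that the ratios were equal.

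H2-DMb2 was not set against a classical chain. The H2-O genes were also set against H2-DMa and H2-DMb1. H2-Oa relative to H2-DMa had a log2 ratio of -5.01 ± 0.40 in CD36-positive libraries and -1.84 ± 0.26 in CD36-negative libraries, a difference of -3.16. H2-Ob relative to H2-DMb1 differed by -1.29, at -3.42 ± 0.29 in CD36-positive libraries and -2.13 ± 0.24 in CD36-negative libraries. Both had no overlap, and both had an exact permutation p of 0.00794 and an adjusted p of 0.0119. H2-DMb2 relative to H2-DMb1 differed by -2.46 with the same p-values, within the limit of the shared reads above. Without CD36-positive libraries 1 and 3 the 6 differences that passed kept their sign and no longer passed, at an adjusted p of 0.0536, where the exact permutation p of 3 against 5 libraries cannot go below 0.0357. Cd74 against H2-Ab1 (difference 0.49, exact permutation p = 0.151, adjusted p = 0.194) and Ciita against H2-Ab1 (0.15, p = 0.730, adjusted p = 0.730) did not pass, and groups overlapped in both. Without CD36-positive library 1, the difference for Cd74 was 0.73 (adjusted exact permutation p = 0.0408) and that for Ciita was -0.12.

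**Figure D3:**
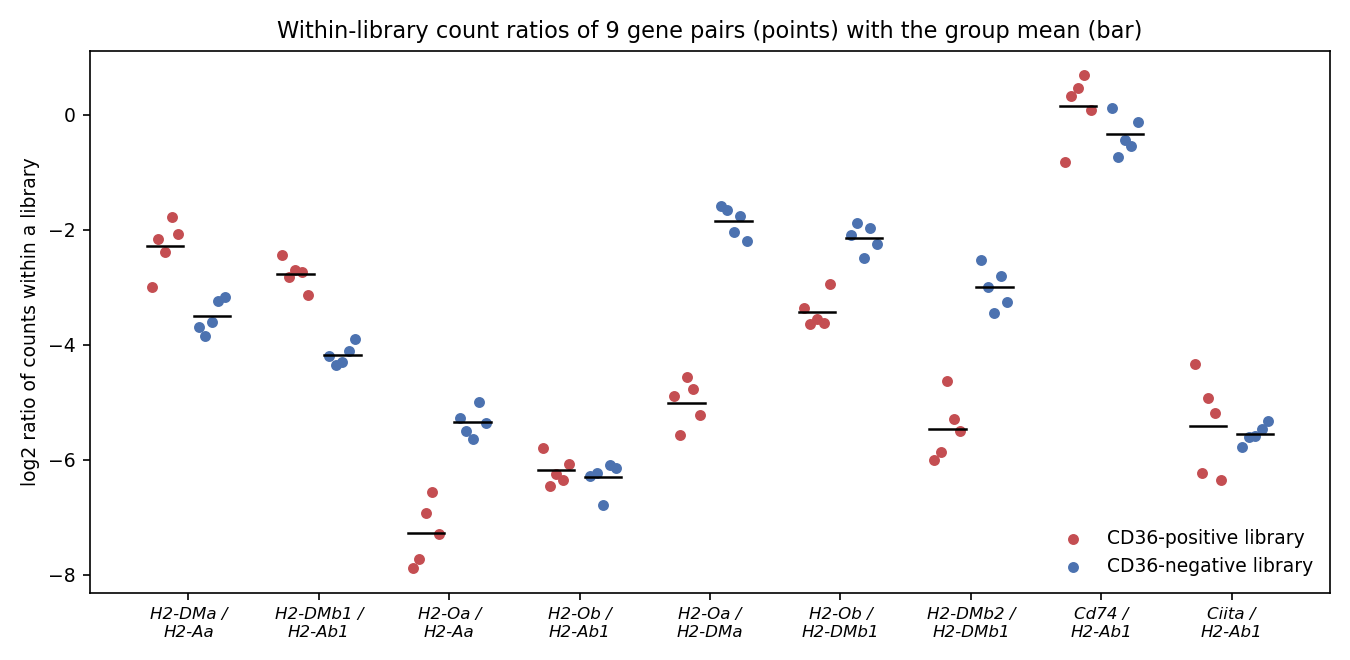
Log2 ratio of 2 gene counts within each library for the 9 pairs, CD36-positive libraries left of CD36-negative libraries, with lines at the group means. The ratios of H2-DMa to H2-Aa and of H2-DMb1 to H2-Ab1 are higher in CD36-positive libraries (differences 1.23 and 1.41), and those of H2-Oa to H2-DMa and of H2-Ob to H2-DMb1 are lower (-3.16 and -1.29).

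Levels of different genes can be compared only per length, here as CPM per kilobase of the principal transcript. In CD36-positive libraries the mean levels in this unit were 1653 for Cd74, 1603 for H2-Ab1, 1245 for H2-Aa and 744 for H2-Eb1. H2-DMb1 (200) and H2-DMa (181) followed, then H2-Ob (9.90), H2-Oa (8.47), Ciita (7.85) and H2-DMb2 (4.67). In this order, neighbours overlapped in range over libraries except H2-Aa with H2-Eb1, H2-Eb1 with H2-DMb1, and H2-DMa with H2-Ob. In CD36-negative libraries the means per kilobase were 8778 for H2-Ab1, 6133 for Cd74, 5152 for H2-Aa and 4320 for H2-Eb1. Next came H2-DMb1 (412), H2-DMa (295), H2-Oa (129), H2-DMb2 (53.0), H2-Ob (50.1) and Ciita (36.9). There the only break without overlap between neighbours was between H2-Eb1 and H2-DMb1. In CD36-positive libraries neither H2-O gene reached the range of H2-DMa. In CD36-negative libraries the range of H2-Oa (84.15 to 188.0 CPM per kilobase) just touched that of H2-DMa (187.7 to 369 CPM per kilobase), and that of H2-Ob did not.

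Class II promoters are known for a conserved array that includes an X box, bound by RFX, and a Y box, bound by NF-Y, on which CIITA assembles. Because these genes were lower together, their start regions are shown. RefSeq windows on GRCm38.p6 (250 bases before to 50 after a start) matched 7 of the 10 by symbol: H2-Aa, H2-Eb1, H2-DMa, H2-DMb1, H2-DMb2, H2-Oa and H2-Ob. H2-Ab1, Cd74 and Ciita are not shown. Each stretch below is 65 bases, 5′ to 3′ on the gene's strand, and capitals mark the letters GNAAC, found in X boxes, and ATTGG, the Y box core.
H2-Aa: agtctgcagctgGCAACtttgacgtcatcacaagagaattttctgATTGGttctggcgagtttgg
H2-Eb1: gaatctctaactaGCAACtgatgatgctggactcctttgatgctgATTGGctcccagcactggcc
H2-DMb1: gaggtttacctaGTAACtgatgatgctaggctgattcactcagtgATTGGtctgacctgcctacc
H2-DMb2: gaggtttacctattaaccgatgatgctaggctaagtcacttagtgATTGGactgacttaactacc
H2-Oa: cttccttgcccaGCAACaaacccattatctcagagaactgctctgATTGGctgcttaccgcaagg
H2-Ob: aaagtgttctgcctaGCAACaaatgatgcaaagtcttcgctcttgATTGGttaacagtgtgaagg
The stretches lie at chr17:34287852-34287916 (minus strand) for H2-Aa, and on the plus strand at chr17:34305763-34305827 for H2-Eb1, chr17:34153085-34153149 for H2-DMb1, chr17:34145114-34145178 for H2-DMb2, chr17:34092291-34092355 for H2-Oa and chr17:34238803-34238867 for H2-Ob. RefSeq starts can differ from the GENCODE gene starts given above, and for some of these genes they lie inside the GENCODE gene. Of the 7 genes, 5 held GNAAC followed by ATTGG at 30 to 33 bases from start to start. That spacing was read from these promoters, and 0.712% of 32851 windows of the same length held it on either strand. ATTGG alone stood on either strand in 37.4% of all windows. H2-DMb2 had no GNAAC at this spacing, and its stretch matched that of H2-DMb1 at 56 of 65 positions (86.2%). Of 2 windows for H2-DMa, 1 held ATTGG alone and the other held neither. The genes with the pair of motifs include H2-Oa at a log2 fold change of -3.92 and H2-DMb1 at -1.04. A match is a description of letters and not a bound site.

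Other genes of the pathway came from a list of 33 symbols chosen by role, of which 27 were tested. In edgeR's quasi-likelihood test 0 were lower and 0 higher, against 4.74% and 2.61% of all tested genes. At those shares a list of this size can hold 0 calls without differing from other genes. At an unadjusted p under 0.05, 4 were lower and 2 higher, and the DESeq2 Wald test called 1 lower (Cst3) and 1 higher (Ctss). The median log2 fold change of the 27 was -0.07, with a range of -1.81 to 0.59. The lowest was H2-Eb2, itself a class II gene, with means of 2.30 CPM in CD36-positive libraries and 8.04 CPM in CD36-negative libraries. The RFX subunit genes, whose products bind the X box, had log2 fold changes of -0.07 (Rfx5), 0.53 (Rfxap) and 0.03 (Rfxank), and none passed. Ctss encodes cathepsin S, which trims the invariant chain, and averaged 11250 CPM in CD36-positive libraries and 7825 CPM in CD36-negative libraries. Its log2 fold change was 0.52 (95% confidence interval 0.10 to 0.95, edgeR adjusted p = 0.135), and 0.70 without CD36-positive libraries 1 and 3 (edgeR adjusted p = 0.0311). The thiol reductase gene Ifi30 was at -0.25, Cd83, whose product stabilises surface class II, at -0.36 and the costimulatory gene Cd86 at 0.50 on the log2 scale, and none passed.

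**Figure D4:**
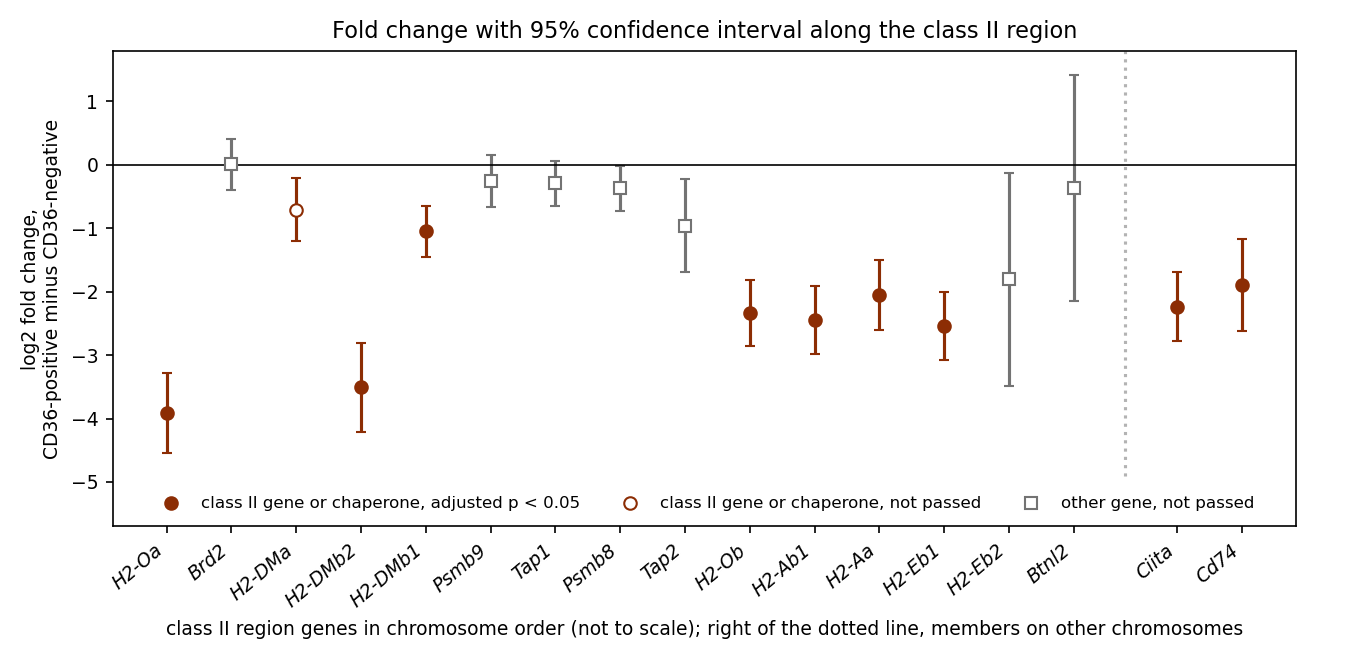
Log2 fold change, CD36-positive minus CD36-negative, with its 95% confidence interval, for the class II genes and other genes of the class II region in chromosome order, with Ciita and Cd74 at the right. Filled circles mark the class II genes described here that passed, and the open circle is H2-DMa at -0.71. Squares are genes outside that set, of which none passed, and include H2-Eb2 at -1.81, itself a class II gene.

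The class II region of chromosome 17 also holds other genes. Of 5 that lie between the class II genes, 0 were lower and 0 higher in edgeR's test (2 lower and 0 higher at an unadjusted p under 0.05), with a median log2 fold change of -0.29. Of 3 listed genes beyond H2-Eb2 (Btnl2, Notch4 and Ager), 0 were lower and 0 higher, with 0 at an unadjusted p under 0.05. Over all tested genes 4.74% were lower and 2.61% higher in edgeR's test, so that 0 calls among so few genes say little. Psmb8, Psmb9 and Tap1, which serve MHC class I, lie between H2-DMb1 and H2-Ob and had log2 fold changes of -0.37, -0.25 and -0.29. Brd2, which overlaps the start of H2-DMa on the opposite strand, was at 0.01. Tap2, the other subunit gene of the class I peptide transporter, was at -0.96 (edgeR adjusted p = 0.109). The difference between these genes and the class II genes was not itself tested.

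Over the 10 libraries, likeness to H2-Ab1 was measured as the root mean square difference of log2 CPM (prior count 2) after centring each gene on its mean. The 5 nearest genes were H2-Eb1 (0.0793), Adgre5 (0.23), H2-Ob (0.249), Lsp1 (0.256) and H2-Aa (0.322). Adgre5 encodes CD97, a leukocyte adhesion receptor, and averaged 30.7 CPM in CD36-positive libraries and 172 CPM in CD36-negative libraries. Lsp1, a leukocyte actin-binding protein gene, averaged 170 CPM in CD36-positive libraries and 1086 CPM in CD36-negative libraries. Nearest to H2-Oa were H2-DMb2 (0.306), Lrrc18 (0.37), Rgs12 (0.395), Upb1 (0.41) and Slc6a13 (0.44). Of these, Upb1 and Slc6a13 were at 0 in every CD36-positive library, and Lrrc18 averaged 0.045 CPM there. In CD36-negative libraries Lrrc18, Upb1 and Slc6a13 averaged only 3.66, 4.47 and 2.29 CPM. Their log2 fold changes were -5.93, -8.42 and -7.46, against -3.92 for H2-Oa. At such low levels the prior count shrinks the difference between groups, so that their likeness to H2-Oa depends on it. The measure shares library depth and the group difference between all these genes and carries no test.

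Most tested marker genes of dendritic cells, monocytes, T and NK cells and neutrophils were also lower in CD36-positive cells. The counts below are from edgeR's test, in which 4.74% of all tested genes were lower and 2.61% higher. Of 12 conventional dendritic cell marker genes tested, 10 were lower in CD36-positive cells and 0 higher, and their summed level was 185 to 318 CPM in CD36-positive libraries and 932 to 1400 CPM in CD36-negative libraries. Flt3, the receptor gene on which dendritic cells depend, had 0.372, 0.452, 2.15, 4.96 and 5.71 CPM in CD36-positive libraries, against 183, 170, 106, 106 and 101 CPM in CD36-negative libraries. The groups were far apart for Flt3. Batf3 and Naaa of the same list did not pass, with log2 fold changes of -0.15 and -0.41. Naaa averaged 179 CPM in CD36-positive libraries and 238 CPM in CD36-negative libraries, and made up most of the sum in CD36-positive libraries. Of 10 mature dendritic cell markers 9 were lower and 0 higher (sums of 29.4 to 86.1 CPM in CD36-positive libraries and 480 to 628 CPM in CD36-negative libraries), and of 10 monocyte markers 7 were lower and 0 higher (347 to 883 CPM in CD36-positive libraries and 1020 to 1860 CPM in CD36-negative libraries). The monocyte sum in CD36-positive libraries was mostly Ccr2, which did not pass. Ccr2 averaged 413 CPM in CD36-positive libraries and 408 CPM in CD36-negative libraries. Within the CD36-negative group the order of the libraries differed between marker sums. Library 7, the lowest for 9 of the 10, had the lowest conventional dendritic cell (932 CPM), monocyte (1020 CPM) and border macrophage (567 CPM) sums. The mature dendritic cell (480 CPM) and neutrophil (308 CPM) sums were lowest in library 2, which was the highest for 5 of the 10, and the T and NK cell sum (61.9 CPM) was lowest in library 4. Conventional dendritic cell (1400 and 1230 CPM) and T and NK cell (257 and 185 CPM) sums were highest in libraries 1 and 2. Monocyte (1860 CPM), mature dendritic cell (628 CPM) and border macrophage (1220 CPM) sums were highest in library 4. The neutrophil sum (842 CPM) was highest in library 8. The microglial sum was lowest in libraries 1 and 2 (7580 and 6740 CPM) and highest in libraries 7 and 8 (15300 and 15200 CPM). Its relation to the class II genes within the group was not tested. Of 10 listed B cell markers 3 were tested and 0 passed in edgeR's test (0 at an unadjusted p under 0.05), with sums of 29.2 to 46.5 CPM in CD36-positive libraries and 17.2 to 42.9 CPM in CD36-negative libraries, and with Blk at 0 in all CD36-negative libraries. Of 8 tested border and perivascular macrophage markers 1 was lower and 3 were higher in edgeR's test. At an unadjusted p under 0.05, 4 of them were lower and 3 higher, and their median log2 fold change was -0.76. The markers of this list thus went in both directions. Their sums were 1270 to 1520 CPM in CD36-positive libraries and 567 to 1220 CPM in CD36-negative libraries. Of 10 listed T and NK cell genes 5 were tested and 4 were lower (2.98 to 18.9 CPM in CD36-positive, 61.9 to 257 CPM in CD36-negative libraries). Of 10 listed neutrophil genes 7 were tested and 6 were lower (82.4 to 193 CPM in CD36-positive, 308 to 842 CPM in CD36-negative libraries). In all these lists, markers at or near 0 in CD36-positive libraries passed the filter on low counts only through the CD36-negative libraries. For such markers a call of lower was nearly fixed in advance. Of the neutrophil genes at 0 in all CD36-positive libraries, Retnlg and G0s2 averaged 76.6 and 7.44 CPM in CD36-negative libraries. Ly6g and Ngp, which were not tested, were at 0 too, against 0.226 and 0.185 CPM in CD36-negative libraries, and Camp, also not tested, averaged 0.473 CPM in CD36-positive libraries and 0.262 CPM in CD36-negative libraries. The part of these cells in the class II difference was not tested.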

How the data were processed

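RNA was sequenced from 10 samples of sorted mouse retinal cells. The deposited table holds expected counts by gene symbol, which are not normalized and of which 91.916% are whole numbers. The submitters' processing notes name fastp 0.18.0, Bowtie2 2.2.8, HISAT2 2.1.0, StringTie 1.3.1 and mm10, and no source used here names the counting program. Of 22008 lines, 8 malformed and 131 repeated ones were dropped. The damage followed 1024-byte blocks, and the lines of 3 of the 10 genes (Cd74, H2-Aa and H2-Ob) cross a block boundary. Date-converted symbols (27) were not used, and March1 and March8 of the pathway list were not matched.

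Counts were rounded and filtered with filterByExpr (minimum count 10). The test was edgeR 4.0.16 (R 4.3.3, TMM scaling, group alone in the model), with Benjamini-Hochberg adjustment over 11596 genes. Ratios within libraries used a prior count of 0.5. Alternatives were DESeq2 1.42.0 size factors and Wald test, limma 3.58.1 voom with sample quality weights, other filters, a threshold of 0.01, replicate blocks, libraries left out and table lines left out. Samples were grouped by the description label, whose numbers differ from those in the titles. Within groups, the chi-square per degree of freedom between libraries was 23.5 to 117, so none were taken as 1 library deposited again. PCR copies are not independent molecules, and intervals on shares cover counting error alone. Gene coordinates are from GENCODE M21 and promoter windows from RefSeq. The edgeR test was tried on simulated counts, with results not given here.

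The 10 genes, the pathway and marker lists and the pairs were chosen with earlier results of these data known. The rule for named genes was all 10, Cd36, a fixed set of pathway genes, any listed gene past the threshold and the 5 genes nearest to H2-Ab1 and to H2-Oa. Other named genes of the lists (Psmb8, Psmb9, Tap1, Tap2, Brd2, Btnl2, Notch4, Ager, H2-Eb2, Cst3, Spi1, Flt3, Batf3, Naaa, Ccr2, Camp and markers at 0) were chosen after their values were seen. Single-cell and spatial data were not used here. The value of 1 marker gene is not reported here.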

Additional observations from a re-analysis of the deposited data

Results flagged for a closer look

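In all, 38 sets of 5 values were checked (each gene in each group, and each ratio in each group). The gap of an extreme library to its nearest other was divided by the range of the 5 values. This quotient exceeded Dixon's 95% critical value of 0.71 for 5 values in 2 sets. Chance flags about 1 in 20 such sets. Cd74 stood at 778.7 CPM in CD36-positive library 1, against 2401 to 2985 CPM in the other CD36-positive libraries. The log2 ratio of H2-Ob to H2-Ab1 was -6.786 in CD36-negative library 4, against -6.285 to -6.087 in the other CD36-negative libraries.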

How the results depend on the processing

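The count of 9 lower and 0 higher genes among the 10 held in every alternative except no filter and the DESeq2 Wald test (10 lower each), and with lines crossing a block boundary left out, an alternative added after seeing the data (6 of 7 tested). No gene changed direction in any alternative. Pathway genes lower numbered 1 with the DESeq2 Wald test (Cst3), 1 with voom (Cst3), 2 with the replicate block by title numbers (Cst3 and Spi1), and 0 to 1 leaving out each library. Pathway genes higher numbered 1 with the DESeq2 Wald test and 1 without both CD36-positive libraries 1 and 3 (Ctss in both). Without those 2 libraries, the ratio differences were 1.506 (H2-DMa/H2-Aa), 1.273 (H2-DMb1/H2-Ab1), -1.845 (H2-Oa/H2-Aa), -3.351 (H2-Oa/H2-DMa), -1.264 (H2-Ob/H2-DMb1), -2.555 (H2-DMb2/H2-DMb1) and -0.3687 (Ciita/H2-Ab1). The first 6 had an adjusted exact permutation p of 0.0536, from the smallest unadjusted p that the fewer libraries allow. Leaving out each library, the difference was 0.3562 to 0.7349 for Cd74/H2-Ab1, -0.1175 to 0.3846 for Ciita/H2-Ab1, where the negative value came without CD36-positive library 1, and -0.000519 to 0.1866 for H2-Ob/H2-Ab1, where the negative value came without CD36-negative library 4. The cause was not tested.

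Same-numbered samples are not said to share an animal, and their deviations correlated at 0.0288, 0.133, 0.0989 and 0.101 for numbers 1, 2, 4 and 7, so the numbers are not shown to pair the samples. With the replicate block by description numbers, 9 of the 10 genes were lower and 466 of all genes were lower and 184 higher, against 550 and 303 without it. Over the 4 shared numbers the paired differences were 1.343 (H2-DMa/H2-Aa), 1.459 (H2-DMb1/H2-Ab1), -2.019 (H2-Oa/H2-Aa), -3.362 (H2-Oa/H2-DMa), -1.283 (H2-Ob/H2-DMb1) and -2.73 (H2-DMb2/H2-DMb1), with an exact sign-flip p of 0.125, the smallest 4 pairs allow.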
